A study of Macaca mulatta with 43 samples.

Results

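This account follows 7 genes of the oligodendrocyte lineage, ERBB3, GPR37, ENPP2, GPR17, GJC3, MYRF and BCAS1, in the medial prefrontal cortex of rhesus macaques that drank ethanol for 1 year and of control animals. The genes were picked by name, and every probeset of the Affymetrix Rhesus Macaque array whose only gene symbol in the platform annotation was 1 of the 7 was taken. The rule sets no threshold on a measured value, but the genes were named with earlier results of these arrays known. That gave 15 probesets of the 24956 that carry 1 gene symbol and of the 52865 on the array. ERBB3 had 4 of them, ENPP2 had 3, GPR37, GPR17 and MYRF had 2 each, and GJC3 and BCAS1 had 1 each. All 15 passed the filter on low values, which left 23815 probesets of 13705 genes to be tested.

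Oligodendrocytes wrap axons of the central nervous system in myelin and develop from precursor cells that persist in the adult cortex. GPR17 is a G protein-coupled receptor that is switched on transiently as precursors commit to differentiate and must be switched off for myelination, in rodents, whereas BCAS1 marks early myelinating cells. MYRF is the transcription factor that turns on myelin genes. ERBB3 is a neuregulin receptor of the epidermal growth factor receptor family, GPR37 is an orphan-type receptor of maturing oligodendrocytes that restrains myelination in mice, ENPP2 encodes autotaxin, the secreted enzyme that makes lysophosphatidic acid, and GJC3 encodes a connexin of myelinating glia in rodents. ENPP2 is also made by the choroid plexus, and ERBB3 and GJC3 also by Schwann cells.

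The arrays came from 43 adult male animals aged 5 to 11 years, each labelled as a separate animal, with tissue of 3 Brodmann areas (24, 25 and 32) pooled per animal. Drinking was established with schedule-induced polydipsia in the 32 ethanol drinkers, which afterwards chose between water and a 4% (w/v) ethanol solution during 22 hours of each day over 1 year. The 11 controls received a daily maltose dextran solution matched in calories, plus water, and all animals were housed individually. Drinkers and controls numbered 11 and none in cohort 4, 8 and 5 in cohort 5, 8 and 4 in cohort 7a, and 5 and 2 in cohort 7b. RNA was extracted with the RNeasy kit in cohorts 4 and 5 and with the AllPrep kit in cohorts 7a and 7b, and by the study's methods the arrays of these pairs of cohorts were also processed as separate groups, in batches that the labels do not give per array. Kit, array processing and pair of cohorts therefore cannot be told apart. In bulk tissue, fewer cells of a type and less RNA per cell cannot be told apart either.

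Cohorts 4 and 5 stood apart from cohorts 7a and 7b over the whole array, on a first principal component with 54.7% of the variance, 96.8% of which lay between these pairs of cohorts. On the second component, with 10.7% of the variance, the drinkers of cohorts 7a and 7b lay at −29.03 to −6.58 and their controls at 9.88 to 50.6, without overlap. Array pairs correlated at 0.953 to 0.996, and no array was identical to another. The 3′ minus 5′ difference of the actin control probesets, a measure that grows with RNA degradation or shorter copies, was 1.26 ± 0.21 in drinkers and 0.82 ± 0.06 in controls of cohort 7a (log2, SD, n = 8 and 4, exact two-sided permutation p = 0.00202, the smallest this design allows). It was 1.10 ± 0.37 in drinkers and 0.78 ± 0.04 in controls of cohort 7b (n = 5 and 2, exact permutation p = 0.286), and drinkers exceeded controls by 0.04 in cohort 5 (n = 8 and 5, exact permutation p = 0.718). The actin difference ran from 4.31 to 4.83 in drinkers of cohort 4, and from 4.36 to 4.95 in drinkers and 4.24 to 4.74 in controls of cohort 5, so that it also separated the pairs of cohorts. The same measure for GAPDH was 1.27 ± 0.13 in drinkers and 1.08 ± 0.08 in controls of cohort 7a (exact permutation p = 0.0283), and 0.91 ± 0.28 in drinkers and 1.05 ± 0.13 in controls of cohort 7b (exact permutation p = 0.524). It was 2.31 in drinkers and 2.23 in controls of cohort 5 (exact permutation p = 0.419). The mean level of 5 neuron markers did not overlap between drinkers and controls of cohort 7a (10.93 to 11.12 and 10.51 to 10.80) or of cohort 7b (10.96 to 11.30 and 10.58 to 10.74). Only 1 of these 5 markers was called in each of these cohorts. Their median difference was 0.08 in cohort 7a and 0.09 in cohort 7b (log2), so the means do not show a shift of neuron markers in general. The mean level of 6 measured mature oligodendrocyte markers of 15 listed was 9.20 to 10.10 in drinkers and 9.30 to 10.12 in controls of cohort 7a. The actin difference was added as a covariate only in fits over all cohorts, given at the end. With cohort as a block and this covariate, the differences of GPR37 and ENPP2 turned from negative to positive at all their probesets. In the differences by cohort the part of RNA quality was not tested, and that of cell makeup was tested nowhere.

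Pooled over all cohorts, none of the 7 genes differed between ethanol drinkers and controls (limma, Benjamini-Hochberg over all tested probesets, adjusted p below 0.05), where 16% of all tested probesets were called. Of the 15 probesets, 4 were nominally higher and 11 lower in drinkers, with a median difference of −0.08 beside −0.04 over all tested probesets (log2), and 1 of the 15 reached an unadjusted p below 0.05. Where a gene had several probesets, its probeset with the highest mean over the 43 arrays stands for it, and values are log2 levels.

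Among the receptors, ERBB3 averaged 7.12 ± 0.41 in drinkers and 7.08 ± 0.23 in controls (SD, n = 32 and 11, probeset MmuSTS.4736.1.S1_at), and its 95% interval for the difference ran from −0.21 to 0.30. GPR37 averaged 9.21 ± 0.45 in drinkers and 9.27 ± 0.17 in controls (MmuSTS.2458.1.S1_at, difference −0.06, SE 0.14, adjusted p = 0.788 in limma). GPR17 averaged 5.88 ± 0.23 in drinkers and 5.77 ± 0.32 in controls (MmugDNA.31452.1.S1_at, difference 0.11, SE 0.09, adjusted p = 0.400). The levels of all 3 receptors overlapped widely between the treatments, and the spread among drinkers was the wider one for ERBB3 and GPR37 and the narrower one for GPR17. The enzyme ENPP2 averaged 9.70 ± 0.51 in drinkers and 9.83 ± 0.26 in controls (MmugDNA.24308.1.S1_at, difference −0.13, SE 0.16, adjusted p = 0.604).

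The transcription factor MYRF averaged 7.28 ± 0.25 in drinkers and 7.11 ± 0.25 in controls (MmugDNA.42249.1.S1_at, difference 0.17, SE 0.09, adjusted p = 0.173). BCAS1 averaged 7.57 ± 0.47 in drinkers and 7.64 ± 0.35 in controls (MmugDNA.12110.1.S1_at, difference −0.08, SE 0.15, adjusted p = 0.767). The connexin GJC3 averaged 5.81 ± 0.19 in drinkers and 6.01 ± 0.27 in controls (MmunewRS.890.1.S1_at, difference −0.20, SE 0.07, adjusted p = 0.0599), the only member with an unadjusted p below 0.05. The gene ID annotated to this probeset is not that of the macaque RefSeq gene, so its identity rests on the platform's symbol. With cohort as a block, which removes the difference between cohorts and called 33.1% of all tested probesets, GJC3 was the 1 member probeset of 15 called and fell by 0.19 (SE 0.07, adjusted p = 0.0376). MYRF stood at 0.18 (SE 0.07, adjusted p = 0.0563) in that fit. Taken cohort by cohort, the GJC3 difference was −0.73 (7b, 5 drinkers and 2 controls), −0.06 (5, exact permutation p = 0.513) and −0.05 (7a, exact permutation p = 0.659). A fall of GJC3 shared by the cohorts is therefore not shown by the blocked fit. The GJC3 call of the blocked fit was kept in 7 of 12 fits that each left out 1 control or drinker 41 of cohort 7b (differences −0.23 to −0.13), and it was lost without control 14 or 15 of cohort 5, control 25 of cohort 7a or control 37 or 38 of cohort 7b (highest adjusted p = 0.176).

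**Figure D1:**
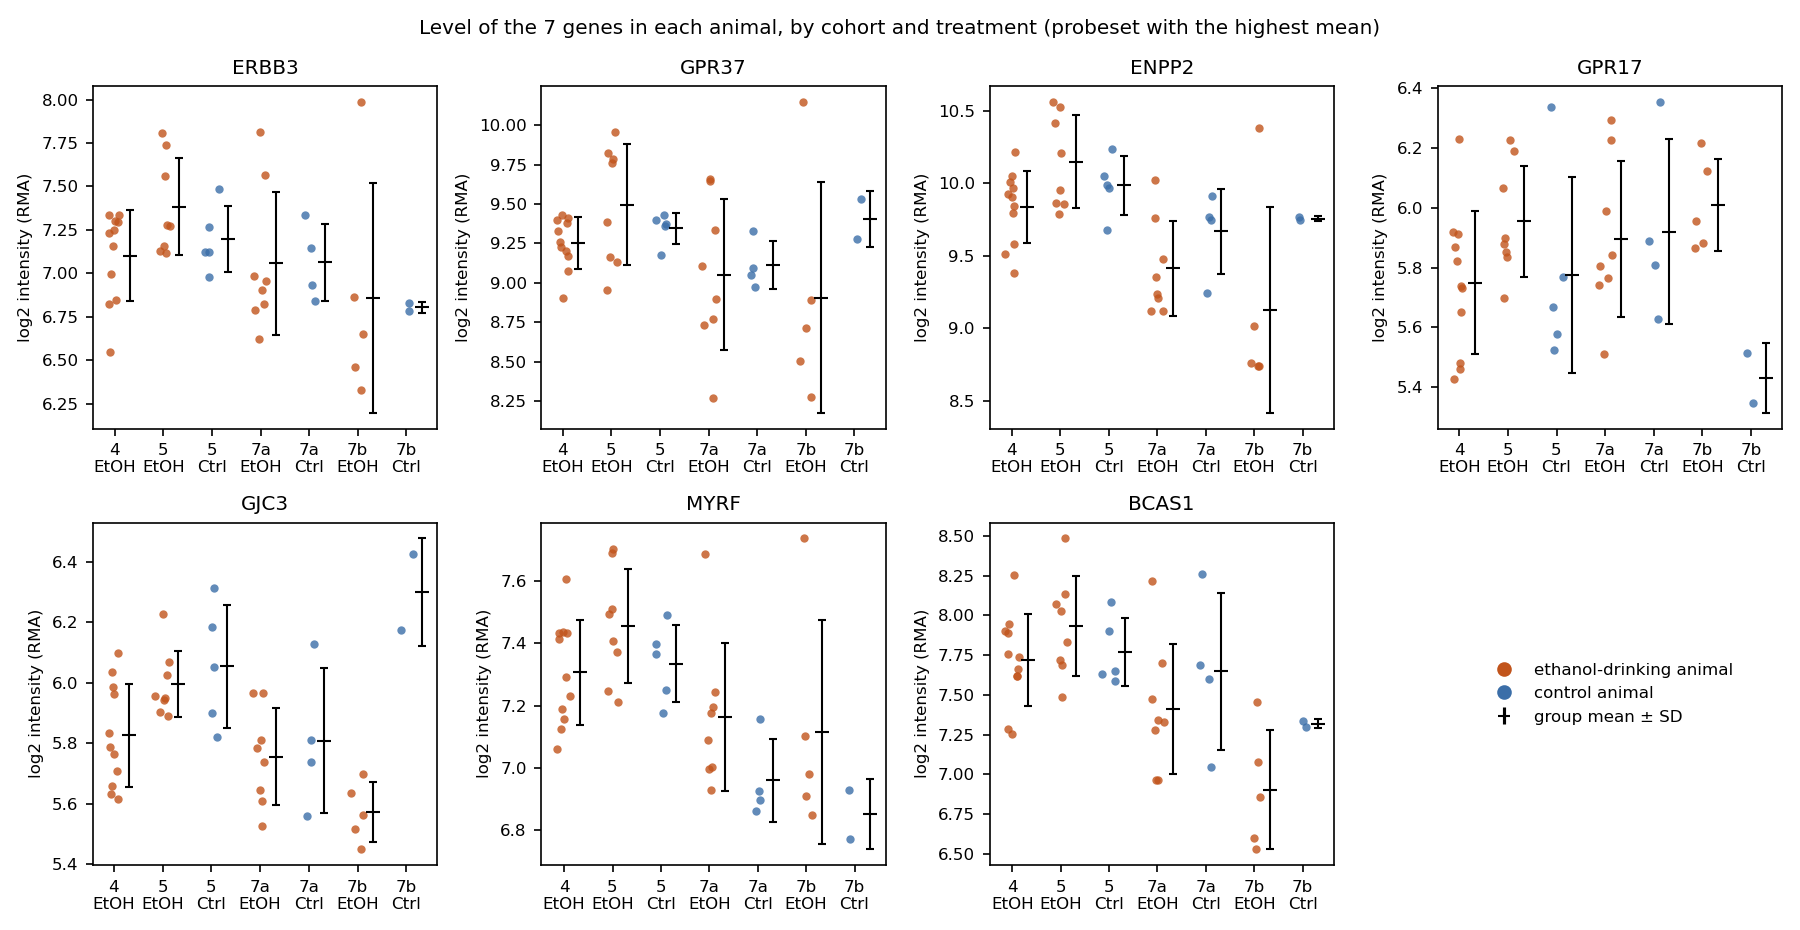
Log2 level of the 7 genes (1 probeset each) in every animal by cohort, as points (drinkers left of controls in each cohort), with the group mean ± SD as a black bar. In cohort 7b the 5 drinkers sit between 5.45 and 5.70 for GJC3, below both controls at 6.43 and 6.17, while in cohorts 5 and 7a the points of the treatments overlap for every gene.

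The cohorts differed in what the animals showed. In cohort 7b, with 5 drinkers and 2 controls, 3 of the 15 member probesets were called, where 40% of all tested probesets were. GJC3 was at 5.52, 5.45, 5.64, 5.56 and 5.70 in the drinkers numbered 39 to 43 and at 6.43 and 6.17 in the controls numbered 37 and 38. Every drinker lay below both controls. GJC3 fell by 0.73 (SE 0.13, limma adjusted p = 2.67e-05), which is 1.66-fold lower, and the exact two-sided permutation test gave p = 0.0476, the smallest that 5 drinkers and 2 controls allow. The call was kept in each of the 7 fits that left out 1 animal of the cohort (−0.85 to −0.60).

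GPR17 ran the other way. Its level was 5.88, 5.87, 5.96, 6.22 and 6.12 in the drinkers of cohort 7b and 5.51 and 5.35 in the controls. All 5 drinkers lay above both controls, and GPR17 rose by 0.58 (SE 0.19, adjusted p = 0.0152), which is 1.49-fold, with the same exact p = 0.0476. The share of all tested probesets that separated the treatments of this cohort is not given here. Whether the separation of GJC3 and GPR17 is particular to these genes was therefore not tested. The call was lost without control 37 (adjusted p = 0.0503) or control 38 (adjusted p = 0.144). The second GPR17 probeset (MmugDNA.5031.1.S1_at) read 4.55, 4.57, 4.61, 4.36 and 4.57 in these drinkers and 4.54 and 4.22 in these controls. Its groups overlapped and its difference was 0.15 (SE 0.15, adjusted p = 0.455), so the rise rests on 1 of the 2 GPR17 probesets.

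The third call of cohort 7b was the second GPR37 probeset (MmugDNA.23958.1.S1_at), at 6.49, 6.37, 8.03, 6.53 and 6.24 in drinkers and 7.47 and 7.61 in controls. Of the drinkers, 4 lay below both controls and drinker 41 lay above both. The difference was −0.81 (SE 0.33, adjusted p = 0.0448). In the 7 fits that left out 1 animal it was called only in the fit without drinker 41, and it was not called when cohort 7b was fitted on its own arrays (adjusted p = 0.161).

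Drinker 41 stood above the other drinkers of its cohort for ENPP2, GPR37, BCAS1, ERBB3 and MYRF. ENPP2 was at 8.74, 8.74, 10.38, 8.76 and 9.02 in the drinkers and at 9.75 and 9.77 in the controls. The main GPR37 probeset was at 8.89, 8.50, 10.15, 8.71 and 8.28 in the drinkers and at 9.53 and 9.28 in the controls. For both genes, drinker 41 was above the controls and the other drinkers were below them. BCAS1 was at 6.86, 6.60, 7.45, 7.08 and 6.53 in the drinkers and at 7.30 and 7.34 in the controls. ERBB3 was at 6.46, 6.33, 7.99, 6.86 and 6.65 in the drinkers and at 6.78 and 6.83 in the controls, so that 3 drinkers lay below both controls and drinkers 41 and 42 above both. The same animal was also the highest for MYRF, at 6.98, 6.91, 7.74, 7.10 and 6.85 in the drinkers and 6.77 and 6.93 in the controls, but not for the main GPR17 probeset or GJC3. The mean of the mature oligodendrocyte markers, none of which is a member, was 9.22, 9.28, 10.32, 9.21 and 9.45 in the drinkers and 10.04 and 9.99 in the controls. It placed drinker 41 above the controls and the other 4 drinkers below them, as ENPP2 did.

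Without drinker 41, an exclusion chosen after its values were seen, 7 of the 15 member probesets were called in cohort 7b, where 40.2% of all tested probesets were. ENPP2 fell by 0.94 at its main probeset (adjusted p = 0.000721) and by 0.84 and 0.74 at its other 2 probesets, 1 of which carries the suffix of probes that may bind other transcripts. GPR37 fell by 0.81 (adjusted p = 0.00876) and 1.14 (adjusted p = 0.00106) at its 2 probesets, against differences of −0.50 (adjusted p = 0.195) and −0.81 with all 5 drinkers. With all 5 drinkers ENPP2 differed by −0.63 (SE 0.28, adjusted p = 0.0714). GJC3 (−0.74) and GPR17 (0.59) were called with and without this animal. At its main probeset ERBB3 differed by 0.05 with drinker 41 (adjusted p = 0.901) and by −0.23 without it (adjusted p = 0.478), so that the direction there was set by that animal. The second ERBB3 probeset (MmugDNA.10912.1.S1_at) differed by −0.24 with all 5 drinkers. It stayed negative in the 7 fits that left out 1 animal (−0.63 to −0.10). BCAS1 differed by −0.41 with drinker 41 (adjusted p = 0.232) and by −0.55 without it (adjusted p = 0.103).

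In cohort 5, none of the 15 probesets was called, as was none of the 23815 tested (0% called, and 3.04% with an unadjusted p below 0.05, to which the members gave 0). The median difference of the members was 0.15, with 10 of 15 nominally higher in drinkers, and the adjusted p was 1.00 for each. GJC3 had its lowest, median and highest drinkers at 5.89, 5.95 and 6.23, and its 5 controls at 6.05, 5.82, 6.32, 6.18 and 5.90. GPR17 had its drinkers at 5.70, 5.89 and 6.23, and its controls at 5.52, 5.67, 5.58, 5.77 and 6.34. For both genes the drinkers lay within the range of the controls. ENPP2 had its drinkers at 9.79, 10.08 and 10.56 and its controls at 9.97, 10.05, 10.24, 9.68 and 9.99, and the highest drinker was above all controls.

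In cohort 7a, where 30.7% of all tested probesets were called, none of the 15 member probesets was, and 1 reached an unadjusted p below 0.05. The members' median difference was −0.10, with 12 of 15 nominally lower in drinkers, beside −0.07 over all tested probesets. GJC3 had its lowest, median and highest drinkers at 5.52, 5.76 and 5.97 and its 4 controls at 6.13, 5.81, 5.74 and 5.56. GPR17 had its drinkers at 5.51, 5.82 and 6.29 and its controls at 5.81, 5.89, 5.63 and 6.36. Neither gene separated the treatments, and their differences were −0.05 (adjusted p = 0.719) and −0.02 (adjusted p = 0.924). MYRF had its drinkers at 6.93, 7.13 and 7.69 and its controls at 6.89, 6.86, 7.16 and 6.92, a difference of 0.21 (SE 0.12, adjusted p = 0.211) with all drinkers above 3 of the 4 controls. The lowest adjusted p was that of the fourth ERBB3 probeset (MmugDNA.2983.1.S1_at, −0.25, SE 0.11, adjusted p = 0.0702), which was called without control 25 (adjusted p = 0.0449) or control 27 (adjusted p = 0.0178) and which did not follow the main ERBB3 probeset between animals.

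**Figure D2:**
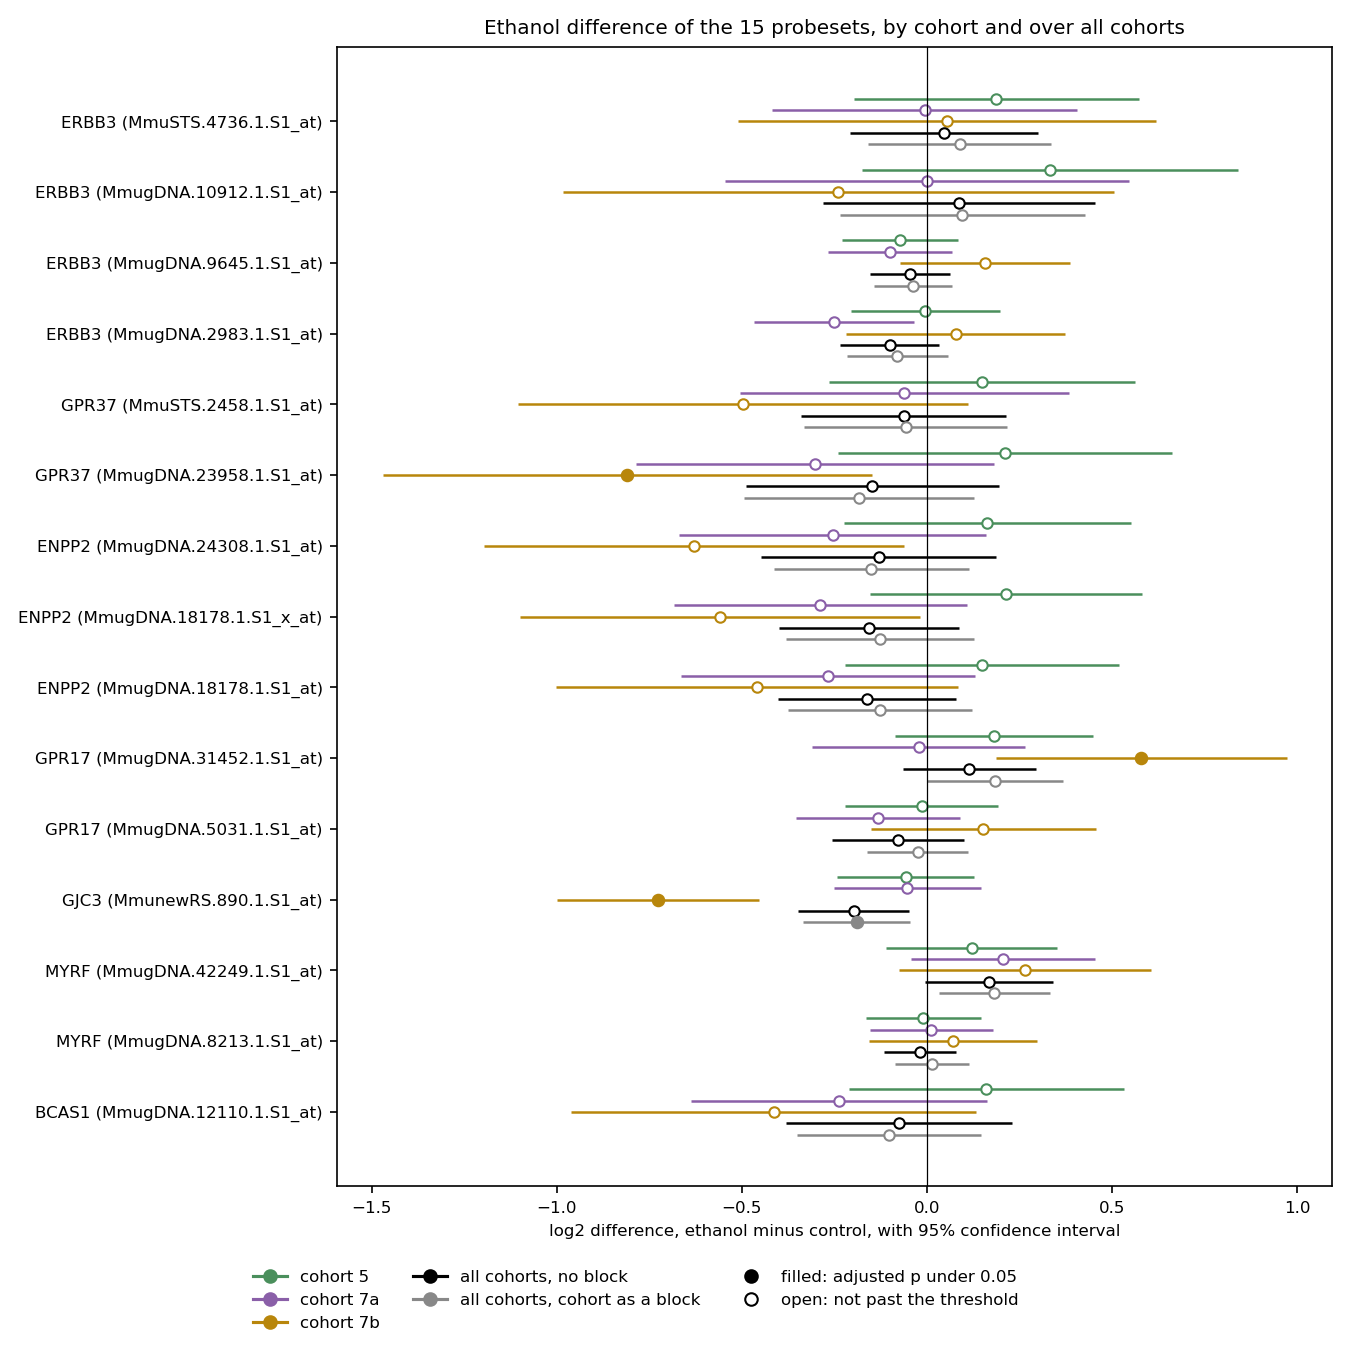
Ethanol minus control difference (log2) of each of the 15 probesets in cohorts 5, 7a and 7b and over all cohorts without and with cohort as a block, as points with the 95% interval of the limma fit, filled where the adjusted p is below 0.05. The 4 filled points are GJC3 (−0.73), GPR17 (0.58) and the second GPR37 probeset (−0.81) in cohort 7b and GJC3 with the block (−0.19), while those of cohort 5 lie between −0.07 and 0.33 with intervals that cross 0.

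The difference between cohorts was tested as an interaction. Between cohorts 7a and 5, 14.3% of all tested probesets were called but none of the 15 member probesets, none of which reached an unadjusted p below 0.05. Between cohorts 7b and 5, a comparison added after the values of cohort 7b were seen, 31.5% of all tested probesets and 2 of the 15 member probesets were called. The drinker minus control difference was lower in cohort 7b than in cohort 5 for GJC3 (interaction −0.67, adjusted p = 0.00138) and for the second GPR37 probeset (interaction −1.02, adjusted p = 0.0447). The fits that left out 1 animal covered cohort 7b and the controls of cohort 5, but not the drinkers of cohort 5. GJC3 stayed called in 12 of 12 of them, and the GPR37 probeset in 2 of 12. For GPR17 the interaction was 0.40 (adjusted p = 0.208) and was not called, so its difference is not shown to differ between these cohorts. Without drinker 41, 7 of the 15 member probesets and 31.9% of all tested probesets were called, with all 3 ENPP2 probesets (−1.11, −1.05 and −0.89), both of GPR37 (−0.96 and −1.35), the second of ERBB3 (MmugDNA.10912.1.S1_at, −0.96, adjusted p = 0.0404) and GJC3 (−0.68) among them.

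Drinkers of cohort 5 were set against drinkers of cohort 4, which share the extraction kit but were separate cohorts. None of the 23815 tested probesets was called (0% called, with 3.76% at an unadjusted p below 0.05), and so none of the members. The main probeset of each of the 7 genes was nominally higher in cohort 5, by 0.15 to 0.31, and 2 of the 15 probesets (1 of ENPP2 and that of GJC3) had an unadjusted p below 0.05. GJC3 averaged 6.0 ± 0.11 in drinkers of cohort 5 and 5.83 ± 0.17 in drinkers of cohort 4 (n = 8 and 11).

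By mean level, the groups of GJC3 ran downward from controls of cohort 7b (6.30 ± 0.18) over controls of cohort 5 (6.05 ± 0.20), drinkers of cohort 5 (6.0 ± 0.11), drinkers of cohort 4 (5.83 ± 0.17), controls of cohort 7a (5.81 ± 0.24) and drinkers of cohort 7a (5.76 ± 0.16) to drinkers of cohort 7b (5.57 ± 0.10). The ranges of neighbouring groups overlapped at every step, and the ends of the order were the 2 groups of cohort 7b. For ENPP2 the order ran from drinkers of cohort 5 (10.15 ± 0.32) over controls of cohort 5 (9.99 ± 0.20), drinkers of cohort 4 (9.84 ± 0.25), controls of cohort 7b (9.76 ± 0.02), controls of cohort 7a (9.67 ± 0.29) and drinkers of cohort 7a (9.41 ± 0.33) to drinkers of cohort 7b (9.13 ± 0.71). Neighbours again overlapped, and the 3 groups of cohorts 4 and 5 stood above the 4 groups of cohorts 7a and 7b, the pairs that also differ in kit, array processing and the actin 3′ minus 5′ difference.

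The members also varied between animals of the same group. The SD within groups was 0.35 for ERBB3, 0.38 for GPR37, 0.35 for ENPP2 and 0.34 for BCAS1, which lies at the 97.3, 98.0, 97.3 and 96.9 percentiles of all tested probesets. It was 0.24 for GPR17 (88.9), 0.21 for MYRF (81.3) and 0.16 for GJC3 (60.5).

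To ask whether the members moved together, levels were centred on each cohort and treatment group and correlated between animals, in cohorts 4 and 5 (24 arrays) and in cohorts 7a and 7b (19 arrays), with p-values from 100000 permutations within groups, adjusted over 42 relations. ERBB3, GPR37, ENPP2, MYRF and BCAS1 formed a set in which all 10 pairs passed in both, with r of 0.52 to 0.92 (median 0.63) in cohorts 4 and 5 and 0.66 to 0.91 (median 0.79) in cohorts 7a and 7b. The set was grouped by these same correlations, so the count of passing pairs is no separate support for it. By rank 8 of the 10 pairs passed in each, the exceptions being GPR37 with MYRF in both (rho = 0.479 and 0.530, adjusted permutation p = 0.0636 and 0.0871), ERBB3 with GPR37 in cohorts 4 and 5 (rho = 0.497, adjusted permutation p = 0.0636) and ENPP2 with MYRF in cohorts 7a and 7b (rho = 0.537, adjusted permutation p = 0.0636). The members were named with earlier results of these arrays known, which for ERBB3, ENPP2 and GPR37 included co-expression. These correlations are therefore not independent evidence that the genes move together. The tightest pair was ERBB3 with ENPP2, at r = 0.917 and rho = 0.900 in cohorts 4 and 5 (adjusted p = 0.00021, from a permutation p of 1e-05, the smallest these permutations give) and r = 0.914 and rho = 0.744 in cohorts 7a and 7b (adjusted permutation p = 0.00294). Without the 2 arrays farthest from the median of the first gene, r over the 10 pairs ran from 0.34 to 0.89 and from 0.31 to 0.75, and for ERBB3 with ENPP2 it was 0.894 and 0.747.

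GPR17 and GJC3 were outside that set. Their main probesets were also the dimmest of the members, at the 36.7 and 36.9 percentiles of mean level among probesets with 1 symbol. Those of the set lay at the 56.7 to 89.7 percentiles. The part of signal level in the lack of correlation was not tested. GPR17 passed with none of the other 6 genes in either pair of cohorts (r −0.06 to 0.45 and −0.07 to 0.35). GJC3 passed with ERBB3 in cohorts 4 and 5 (r = 0.543, rho = 0.486, adjusted permutation p = 0.0142, 0.565 without the 2 farthest arrays) and with no gene in cohorts 7a and 7b (r −0.21 to 0.26). Over the 42 relations 21 passed, all of them positive, and 22 passed among drinkers alone (17 and 11 by rank). In drinkers alone GPR17 passed with GJC3 in cohorts 7a and 7b (r = 0.742, adjusted permutation p = 0.0221, 13 arrays) and with MYRF in cohorts 4 and 5 (r = 0.566, adjusted permutation p = 0.0274, 19 arrays). Neither passed by rank (rho = 0.621 and 0.519, adjusted permutation p = 0.0854 and 0.0797), and without the 2 farthest arrays r was 0.477 and 0.415.

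Probesets of 1 gene did not always move together. The 2 brightest ERBB3 probesets correlated at 0.899 and 0.927 in the 2 pairs of cohorts, the GPR37 probesets at 0.802 and 0.887, and the ENPP2 probesets at 0.849 to 0.942 and 0.955 to 0.984. The third and the fourth ERBB3 probesets (MmugDNA.9645.1.S1_at and MmugDNA.2983.1.S1_at) did not pass with the first in either (−0.38 and 0.23 for the third, 0.01 and −0.15 for the fourth). The GPR17 probesets did not pass either (0.231 and 0.181), and the MYRF probesets passed only in cohorts 7a and 7b (0.317 and 0.810). A value of ERBB3, GPR17 or MYRF therefore depended on which probeset was read, and the values above name it.

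**Figure D3:**
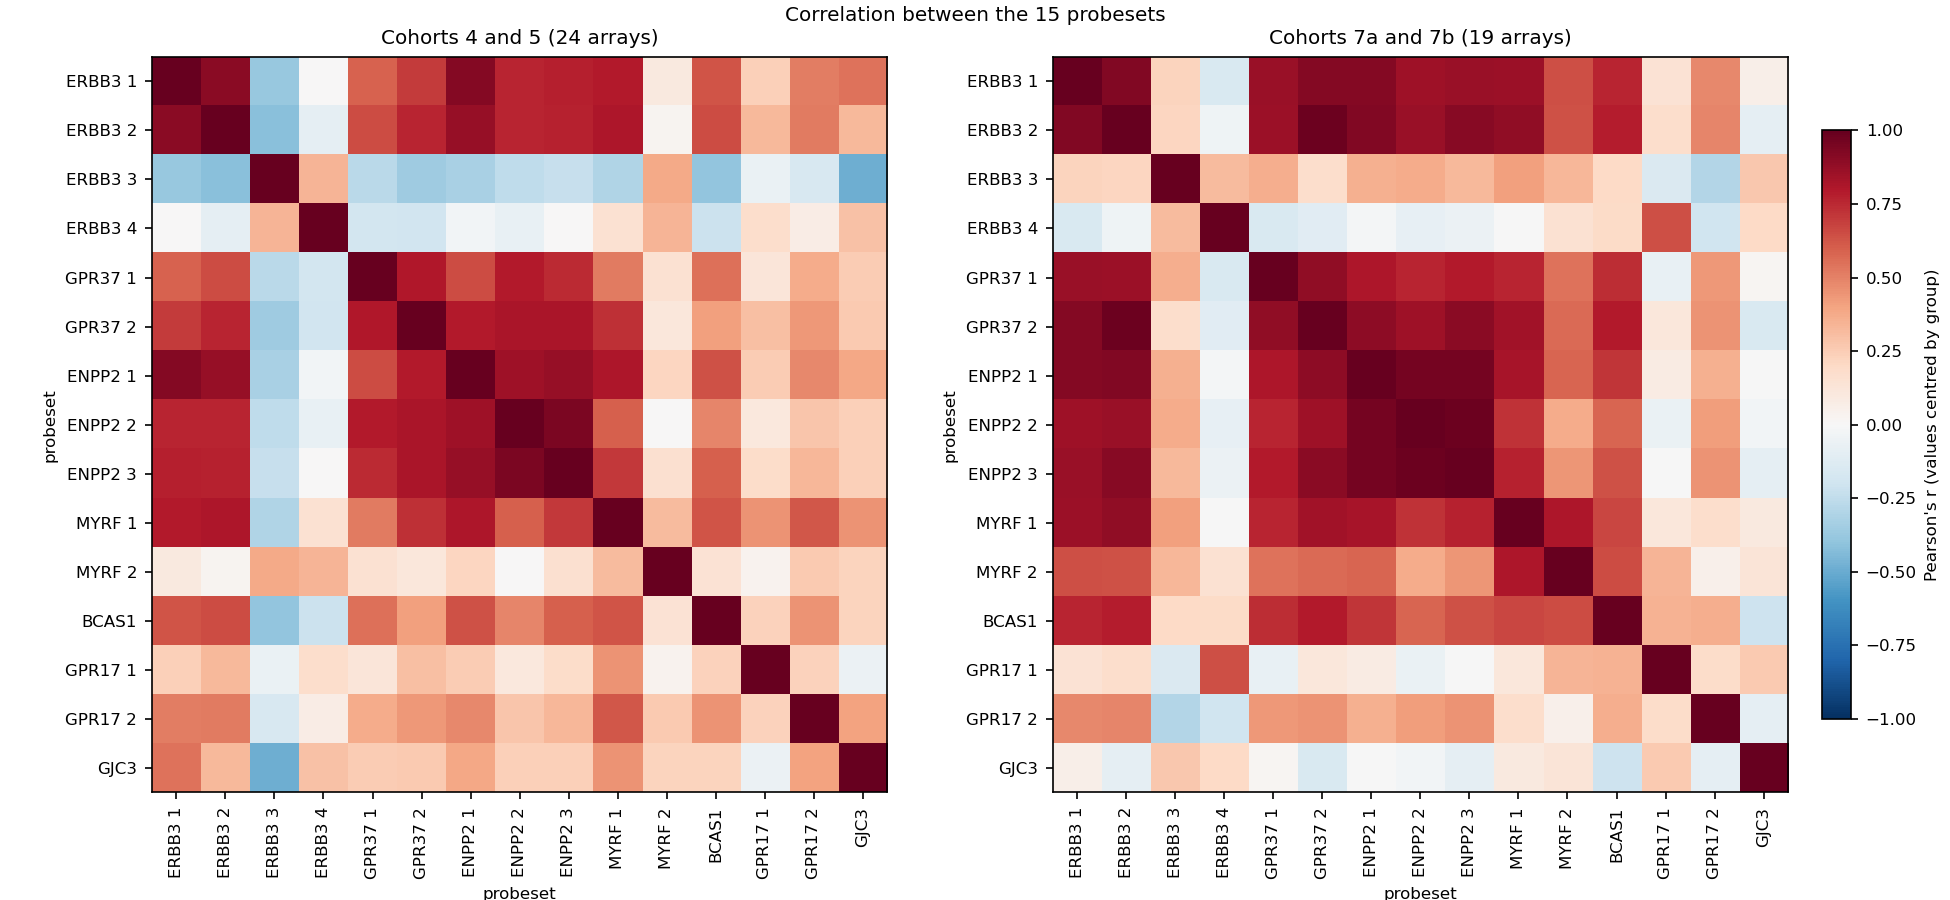
Pearson's r between all 15 probesets in cohorts 4 and 5 (left, 24 arrays) and cohorts 7a and 7b (right, 19 arrays), with probesets numbered within each gene from the highest mean level down. The first probesets of ERBB3, GPR37, ENPP2, MYRF and BCAS1 form a block of r from 0.52 to 0.92, and GPR17, GJC3 and the third and the fourth ERBB3 probesets lie outside it.

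Set against the mean level of marker lists that hold none of the members, in a family of 84 relations added after the member values were seen, the same 5 genes followed the mature oligodendrocyte markers in both pairs of cohorts. ENPP2 had r = 0.922 and 0.918, ERBB3 0.837 and 0.869, MYRF 0.818 and 0.770, GPR37 0.754 and 0.790 and BCAS1 0.692 and 0.803, and all of these passed. The study had already placed the listed markers CNP, UGT8 and MAL in the same co-expression module of these arrays as ENPP2, ERBB3 and GPR37. For these members the relations are therefore not independent evidence. In cohorts 7a and 7b MYRF did not pass by rank (rho = 0.600, adjusted permutation p = 0.0874), and its r was 0.378 without the 2 farthest arrays. GPR17 (0.216 and 0.202, adjusted permutation p = 0.634 and 0.762) and GJC3 (0.340 and −0.172, adjusted permutation p = 0.363 and 0.792) did not pass. Of the remaining relations only BCAS1 with the precursor markers in cohorts 4 and 5 passed (r = 0.565, adjusted permutation p = 0.0435), and none with astrocyte, microglia, neuron or vessel markers did. GPR17, a gene of committed precursors, had r = 0.253 and 0.355 with the precursor markers and did not pass.

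**Figure D4:**
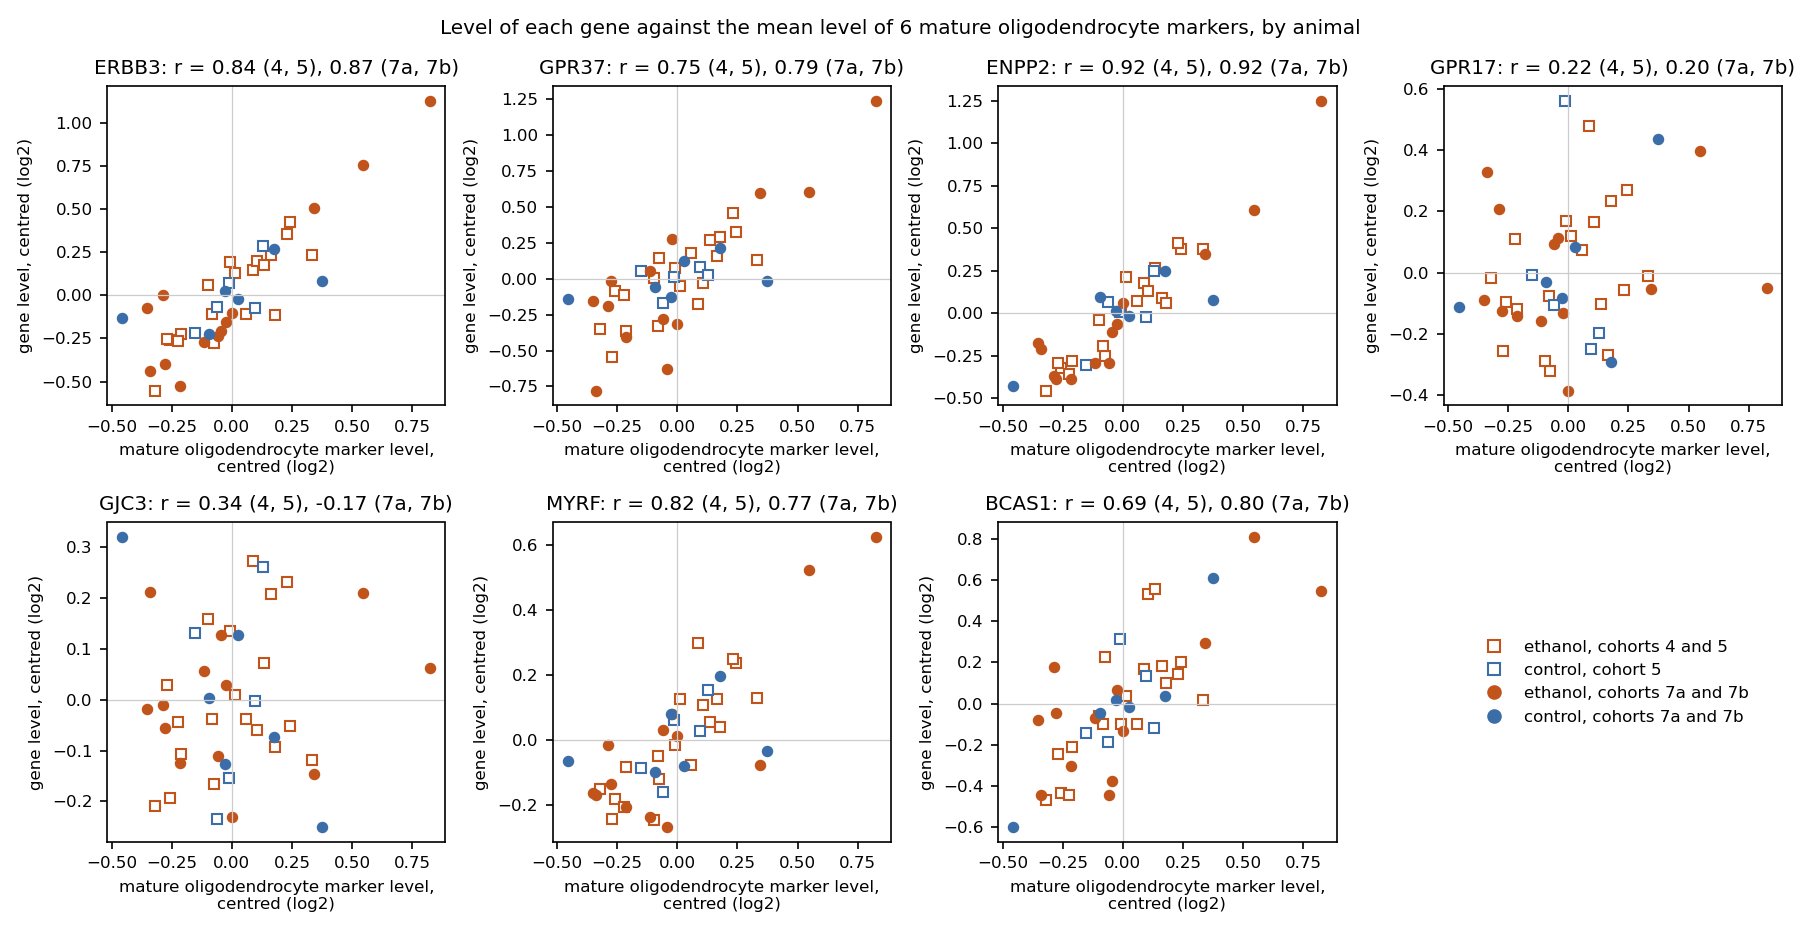
Level of each of the 7 genes in every animal against the mean of the 6 mature oligodendrocyte markers (both log2, centred on cohort and treatment group), drinkers in orange and controls in blue, open squares for cohorts 4 and 5 and filled circles for cohorts 7a and 7b. ENPP2 and ERBB3 rise along the axis (r = 0.922 and 0.837 in cohorts 4 and 5), and GPR17 and GJC3 scatter without a line (0.216 and 0.340).

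By likeness over all 43 centred arrays, given as a description, ERBB3 was nearest to ENPP2 (r = 0.915), ACAN (0.914) and ADAMTS4 (0.898), the last 2 being a proteoglycan of the extracellular matrix and a protease that cuts such proteoglycans. ENPP2 was nearest to ADAMTS4 (0.935), MAL (0.934), a myelin lipid-raft protein, and ATP5MC1 (0.915), a subunit of mitochondrial ATP synthase. GPR37 was nearest to RASGRP3 (0.848), UGT8 (0.840), which makes the myelin lipid galactosylceramide, and HHIP (0.814). MYRF was nearest to ERBB3 (0.857), ACAN (0.854) and SOX10 (0.836), a transcription factor of the lineage, and BCAS1 to MBP (0.850), the myelin basic protein, WIPF1 (0.827) and LOC699434 (0.826). The nearest genes of GPR17 were TMEM182 (0.621), LMOD2 (0.601) and TMEM98 (0.595), which binds MYRF, and those of GJC3 were P2RY4 (0.638), BCL2L11 (0.632) and NOD1 (0.614). No gene reached the likeness for GPR17 or GJC3 that the other 5 members had with their first neighbour.

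The genes around the members were read from lists by role. The fit over all cohorts called 16% of all tested probesets, the share to set beside the count of each list. Of the neuregulin and ERBB family, 6 of 9 listed genes were measured and none was called over all cohorts, with NRG3, a neuregulin and the brightest of them, at 0.04 (adjusted p = 0.757). Of the lysophosphatidic acid pathway, the receptors of the ENPP2 product and the phosphatases that degrade it, 7 of 12 symbols were measured and 1 was called, LPAR6, which fell by 0.60 (SE 0.12, adjusted p = 0.00168). In cohort 7a 4 of these 7 were called (LPAR4, LPAR5, LPAR6 and PLPP3, beside 30.7% of all tested probesets) and in cohort 7b 2 of 7 (LPAR6 and PLPP3, beside 40%), all of them lower, and these were named after their values were seen. ENPP2 itself was called in neither cohort with all animals kept. LPAR6 differed by −0.16 in cohort 5 (adjusted p = 1.00), −0.72 in cohort 7a (adjusted p = 0.000125) and −1.80 in cohort 7b (adjusted p = 5.58e-10).

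Of the connexins of oligodendrocytes and astrocytes 2 of 4 were measured, and neither was called over all cohorts. GJB6, an astrocyte connexin, differed by −0.21 (adjusted p = 0.143) over all cohorts and fell by 0.83 in cohort 7b (adjusted p = 0.00127). It was the 1 of the 2 called there, where 40% of all tested probesets were. Of the receptors and ligands grouped with GPR17 and GPR37, 6 of 10 were measured and 1 was called over all cohorts, beside 16% of all tested probesets. It was P2RY12, a microglial purine receptor, which fell by 0.49 (SE 0.14, adjusted p = 0.0175). Of the lineage transcription factors 10 of 17 were measured and none was called, with ID4, an inhibitor of differentiation, at 0.14 (adjusted p = 0.316).

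Neither 5 measured precursor markers nor 6 mature oligodendrocyte markers held a call over all cohorts, with CSPG5 at 0.10 (adjusted p = 0.218) and CNP at 0.06 (adjusted p = 0.226) as the brightest of each. Astrocyte (6 measured, SLC1A3 at 0.03, adjusted p = 0.678), vessel (5, CLDN5 at −0.21, adjusted p = 0.390), choroid plexus and ependyma (4, KCNJ13 at −0.17, adjusted p = 0.0956) and Schwann cell markers (2, PRX at −0.01, adjusted p = 0.931) held none over all cohorts either. Of 8 microglia markers 2 fell, P2RY12 (the call also counted among the receptors) and AIF1 (−0.42, adjusted p = 0.00443). Of 5 neuron markers 1 rose, GAD2, an enzyme of GABA synthesis (1.12, SE 0.20, adjusted p = 0.000933). These counts stand beside 16% of all tested probesets called in that fit. With array weights the calls of P2RY12, AIF1, GAD2 and LPAR6 were all 4 lost (adjusted p = 0.329 to 0.609), but that setting called 0 of the 23815 tested probesets. P2RY12 was also lost without control 37 of cohort 7b. In cohort 7b, where 40% of all tested probesets were called, so were 3 of the 6 mature oligodendrocyte markers (CNP higher, UGT8 and CNDP1 lower), 3 of the 6 astrocyte markers (GFAP and SLC1A2 higher, S100B lower) and 4 of the 8 microglia markers (CSF1R and C1QC higher, P2RY12 and AIF1 lower). The precursor marker CSPG5 and the neuron marker GAD2 were called higher there, the vessel markers CLDN5 and PECAM1 and the choroid plexus marker KCNJ13 lower, and no Schwann cell marker was called. These genes were named after their values were seen. In that cohort, where GJC3 and GPR17 were called, the neuron mean was 11.12, 11.08, 11.30, 10.96 and 11.20 in the drinkers and 10.74 and 10.58 in the controls, and the astrocyte mean was 11.98 to 12.09 in the drinkers and 11.80 in both controls. The mean of the 4 choroid plexus and ependyma markers was 5.75 to 5.86 in the drinkers and 5.89 to 5.97 in the controls, and in cohort 7a, where it overlapped, 5.77 to 5.99 in the drinkers and 5.96 to 6.14 in the controls. All 3 means separated the treatments in cohort 7b as GJC3 and GPR17 did. The means of the precursor, mature oligodendrocyte, microglia, vessel and Schwann cell markers overlapped there. How often a tested probeset separated the treatments of this cohort is not given here, so these separations have no background to be read against. The part of the 3 separated lists in the GJC3 and GPR17 calls, and that of the choroid plexus in the ENPP2 values, was not tested.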

How the data were processed

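Log2 values of 52865 probesets, summarised with RMA in the affy package per the submitters' processing notes, were used as deposited by the authors. Control probesets (158) and those with several symbols (361) or none (27390) were left out, as were those under 3.5 in at least 80% of the arrays. Tests used limma 3.58.1 in R 4.3.3 (lmFit, eBayes) with Benjamini-Hochberg adjustment over 23815 probesets and calls at an adjusted p below 0.05. The pooled fit had 2 classes and no cohort term, and the fit by cohort had 1 mean per cohort and treatment. P-values measure the spread between animals, and the number of arrays limits the precision. Correlations used Python 3.11.15, numpy 2.4.6 and scipy 1.17.1. Scripts were tested on simulated data.

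Members and lists were chosen with earlier results of these data known. Lists are represented by 1 probeset per gene (highest mean); the text names every member probeset, up to 3 called genes per list with the smallest adjusted p or the gene with the highest mean, and 3 nearest genes per member. The comparison of cohorts 7b and 5, the marker relations, the blocked fits that left out controls or cohort 7b, and fits without drinker 41 were added after the data were seen. The entrez ID of 6 of the 7 members matched the macaque RefSeq gene, and GJC3 kept its annotated symbol.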

Additional observations from a re-analysis of the deposited data

Results flagged for a closer look

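Some member values stood apart within their group (the gap to the nearest animal over the whole range exceeded Dixon's 95% critical value). Drinker 41 of cohort 7b did so for ERBB3 at its second probeset (8.01, with the others at 5.92 to 6.17), GPR37 at its second probeset (8.03, others 6.24 to 6.53), ENPP2 (10.38, others 8.74 to 9.02) and MYRF (7.74, others 6.85 to 7.10). Drinker 42 of that cohort was low for the second GPR17 probeset (4.36, others 4.55 to 4.61). Drinker 31 of cohort 7a was high for MYRF (7.69, others 6.93 to 7.24). Control 13 of cohort 5 was low for GPR37 (9.18, others 9.36 to 9.43). Chance marks about 1 in 20 groups, or 3.75 of the 75 tested, and 7 were marked, 4 of them in 1 animal. The values with and without that animal stand in the report.

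The difference between drinkers and controls was itself different between cohorts 7b and 5 for GJC3 (interaction −0.67, limma adjusted p = 0.00138) and for the second GPR37 probeset (−1.02, adjusted p = 0.0447).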

How the results depend on the processing

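The count of calls over all cohorts moved with the processing, from 3813 (1326 of them higher) to 7890 with cohort as a block, 2277 without cohort 4, 1285 at an adjusted p below 0.01, 0 with array weights (limma, 2189 at an unadjusted p below 0.05) and 8230 with probesets that lack a symbol (4643 higher). Centring each array on its median gave 3024 calls with 1814 higher, and the actin covariate 3684 with 1702 higher. Leaving out 1 control, or drinker 41 of cohort 7b, gave 1677 to 4974, with 2449 and 2507 without controls 27 and 28 of cohort 7a and 1677 and 1711 without controls 37 and 38 of cohort 7b. Fitted on their own arrays, cohort 5 and the drinkers of cohorts 5 and 4 gave 1 call each in place of 0. Between cohorts 7a and 5 leave-outs gave 2259 to 3514, the lowest without control 28 of cohort 7a. Over every pair of probesets, some of them of the same gene, 79 of 210 relations passed in place of 21 of 42. No paired analysis was possible because each animal has its own number.

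Signs turned only in uncalled values. With the block they turned for MYRF (second probeset, 0.014), SLC1A3 (−0.0032) and PRX (0.017). Without cohort 4 they turned for MYRF (second probeset, 0.013), NRG3 (−0.026), SLC1A3 (−0.020) and PRX (0.022). With array centring they turned for the third ERBB3 probeset (0.020), GPR37 (main probeset, 0.0019), MYRF (second probeset, 0.047) and PRX (0.056). Array weights turned SLC1A3 (−0.0048) and PRX (0.029). With block and actin covariate the values were 0.110 and 0.014 for GPR37 and 0.010, 0.130 and 0.101 for ENPP2. The block without cohort 7b turned GPR37 (main probeset, 0.051), MYRF (second probeset, 3.4e-05), SLC1A3 (−0.042), CLDN5 (0.012) and PRX (0.027). In drinkers alone r was 0.117 for GPR17 with GJC3 in cohorts 4 and 5, and 0.225 for GJC3 with ENPP2 and with BCAS1 in cohorts 7a and 7b.

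In fits over all cohorts the animals left out in turn were the controls and drinker 41 of cohort 7b. In contrasts by cohort they were the controls and, for cohort 7b, also its drinkers. Drinkers of the other cohorts were not left out singly. Pooled values ran from −0.025 to 0.017 for PRX and −0.031 to 0.00019 for MYRF (second probeset), and blocked values from −0.061 to 0.0092 for GPR17 (second) and −0.0027 to 0.031 for MYRF (second). In cohort 5 they ran from −0.031 to 0.027 for the fourth ERBB3 probeset, −0.10 to 0.073 for GPR17 (second), −0.044 to 0.030 for MYRF (second) and −0.12 to 0.0070 for GJC3. In cohort 7a the ranges were −0.11 to 0.011 for GPR37, −0.082 to 0.084 and −0.18 to 0.14 for ERBB3, −0.12 to 0.12 for GPR17, −0.011 to 0.044 for MYRF (second) and −0.14 to 0.053 for GJC3. In cohort 7b they were −0.23 to 0.19 for ERBB3, −0.0088 to 0.31 for GPR17 (second) and −0.014 to 0.15 for MYRF (second). For cohort 7a minus 5 they were −0.018 to 0.056 for MYRF (second), −0.083 to 0.039 for the third ERBB3 probeset and −0.079 to 0.11 for GJC3, and for 7b minus 5 −0.011 to 0.22 and −0.0040 to 0.16 for MYRF.

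The pooled GJC3 difference was called in 4 of 12 leave-outs, those without control 13 or 16 of cohort 5 or control 27 or 28 of cohort 7a. The blocked GPR17 difference was called without control 16 or 28 and that of MYRF without control 14 or 27. On their own arrays the second GPR37 probeset was not called between cohorts 7b and 5 (adjusted p = 0.0871). Among drinkers GPR37 with MYRF no longer passed in cohorts 4 and 5 (r = 0.524). KCNJ13 was called without control 12 of cohort 5. Over all values of single genes and pairs under the alternatives, 1394 kept their direction and call, 34 lost a call, 23 gained one and 64 turned sign. The cause of these changes was not tested.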
